A study of Homo sapiens with 9 samples.

Results

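Frame-shifting skipped exons are exons whose length is not a multiple of 3 bases, so that leaving one out of an mRNA changes the reading frame of everything downstream. They were taken from the 2 deposited skipped-exon tables (ORF with NC, MT with NC) by length alone: 31 to 300 bases, and not divisible by 3. This gave 33137 exons of 58663 skipped exons in all, against 21570 frame-preserving exons of the same lengths. The RNA came from HCT-116, an established line of human colorectal carcinoma, and each of the 3 groups has 3 libraries. ORF cells carried a stable construct for the peptide-coding frame of LINC00266-1, a long noncoding RNA gene. By their label alone, the MT cells stably expressed 5'UTR-ORFmut, in which the start codon ATG of that frame is changed to ATT; the measured level of the gene, given further on, does not show it. NC cells carried a blank vector, and all groups share the HCT-116 background. The labels do not say whether a group is a clone or a pool, nor whether its libraries came from separate cultures, so p-values measure the spread between these libraries, which may be technical. The series title names mRNA splicing as the process under study.

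An inclusion level is the share of the inclusion form, from 0 to 1, after junction reads of each form are divided by that form's effective length. When a frame-shifting coding exon is skipped, the ribosome usually meets a stop codon soon after the new junction. An mRNA whose stop codon lies well upstream of its last exon junction is a classic substrate of nonsense-mediated decay, a surveillance pathway in which exon junction proteins left downstream of the stop recruit UPF factors. Some genes use the reverse arrangement: a "poison" exon, normally left out, brings a stop codon with it when it is included. Splicing regulators and other RNA-binding proteins are well known for controlling their own mRNA in this way. An early stop was counted here where the stop codon of the shifted frame lies more than 50 bases upstream of the last exon junction of the annotated transcript (GENCODE 29, build GRCh38).

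The frame change can be read directly from the sequence. The stretches shown are from 8 exons whose levels are described further on, and each ends at the first stop codon that the changed frame meets, in capitals, with up to 30 bases shown and fewer where the new junction lies closer. In 2 of them the stop is inside an exon that NC libraries mostly left out, and in the others it follows the junction made by skipping.
EIF4A2, 107-base exon, stop on inclusion, chr3:186788310-186788319, plus strand: gagtcgaTAG
SAT1, 110-base exon, stop on inclusion, chrX:23784294-23784307, plus strand: gttacagtctcTAG
EIF4A2, 140-base exon, stop on skipping, chr3:186785936-186785965, plus strand: ctgcattggtggaacaaatgttcgaaaTGA
HNRNPH3, 139-base exon, stop on skipping, chr10:68338577-68338606, plus strand: agcgaccgggaccatatgatagaccaaTAG
FDXR, 85-base exon, stop on skipping, chr17:74864321-74864347, minus strand: aggtcccccgcccgaggaagcggcTGA
TOMM34, 148-base exon, stop on skipping, chr20:44943557-44943579, minus strand: agcactctgctatttggtccTGA
SNRPA1, 80-base exon, stop on skipping, chr15:101285796-101285801, minus strand: tttTAA
ADRM1, 103-base exon, stop on skipping but not early, chr20:62308721-62308750, plus strand: aggacaagaaggacgaagaggaggacaTGA
Distance to the stop was counted from the codon that spans or directly follows the new junction. It was 3 codons in the EIF4A2 exon of 107 bases, 4 in SAT1, 7 in TOMM34, 8 in FDXR and 34 in HNRNPH3.

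The 33137 exons had a median length of 118 bases, with quartiles of 85 and 157 bases. Lengths that leave a remainder of 1 base (16646 exons) and of 2 bases (16491 exons) were about equally common. By place, 24785 exons (74.8%) lay in the coding part of an annotated transcript, 2269 (6.85%) in a 5' UTR, 21 in a 3' UTR, 2949 (8.9%) only in transcripts annotated as targets of nonsense-mediated decay, and 3113 (9.39%) only in noncoding transcripts. Skipping was computed to give an early stop in 18451 exons (55.7%), with the stop a median of 12 codons after the junction. Inclusion was computed to give one in 2562 exons (7.73%), a median of 15 codons after the junction, and in 1958 of these the stop was inside the exon. Another 4144 exons (12.5%) met no early stop by this rule. The effect was not computed for 7980 exons (24.1%), such as exons outside coding sequence or holding a start codon. An annotated start codon lay in 2815 exons.

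Most of these exons were nearly always included, and levels differed between the classes of frame effect. These classes also differ by annotation. The skipping effect was computed only for exons that are coding in a protein-coding transcript, and the inclusion effect only for exons in no such transcript. The part of the frame itself in these levels was not tested. Over the 17670 exons with a mean of at least 20 reads in every group, the median level was 0.982 in ORF libraries, 0.987 in libraries labelled MT and 0.984 in NC libraries. Exons whose skipping gives an early stop (9726) had medians of 0.991 in ORF, 0.995 in MT and 0.992 in NC libraries, and 85.8% of them were above 0.95 in NC. Exons whose inclusion gives an early stop (1737) were the mirror image, with medians of 0.0127 in ORF, 0.00967 in MT and 0.0110 in NC libraries, and 77.7% of them were under 0.05 in NC. The other classes lay between, at 0.988 in NC for the 2471 exons with no early stop and 0.894 in NC for the 3736 not computed. Frame-preserving exons (12339) had medians of 0.98 in ORF, 0.984 in MT and 0.981 in NC libraries, so that the frame-shifting exons as a whole did not stand apart from them by level. The length bounds mark no step: in NC the median was 0.983 for 57 exons of 26 to 30 bases, just outside, 0.981 for 149 exons of 31 to 35 bases, just inside, 0.982 for 21 exons of 296 to 300 bases, inside, and 0.994 for 33 exons of 301 to 305 bases, outside.

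**Figure D1:**
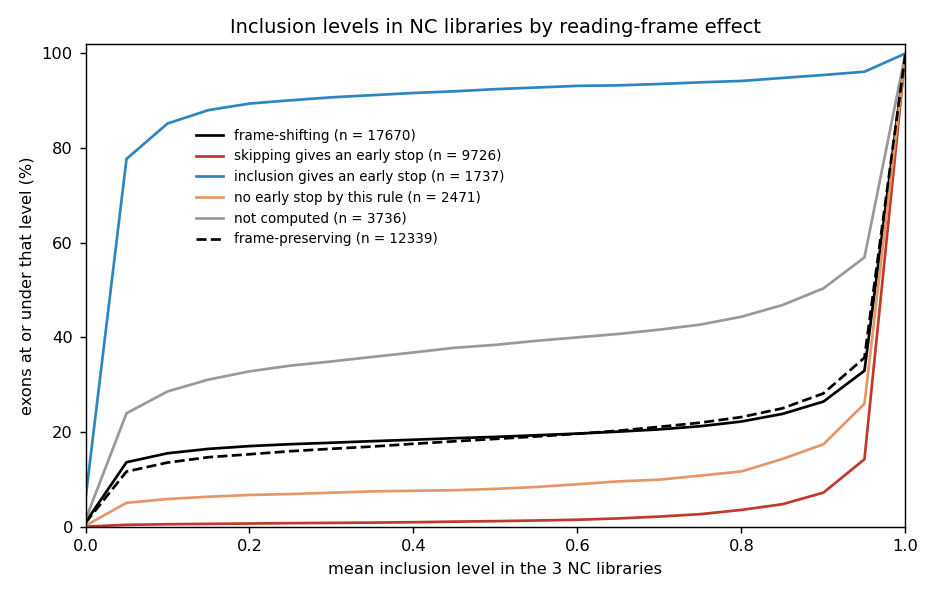
Cumulative share of exons (y axis, %) at or under a given mean inclusion level in the 3 NC libraries (x axis, 0 to 1), 1 line per reading-frame effect and a dashed line for frame-preserving exons. The line of the 1737 exons whose inclusion gives an early stop climbs at the left, with 77.7% of them under 0.05, while that of the 9726 exons whose skipping gives one stays low until 0.95.

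Each library held 19.5 to 24.4 M reads in the gene tables. LINC00266-1 was at 10766, 10762 and 11529 normalized reads in ORF libraries, against 0.977, 0 and 0 in NC libraries of the same table. It was at 1.06, 0 and 0 in the libraries labelled MT, so these give no sign of a transcript counted as LINC00266-1, and directions drawn from them rest on the label. PKM, a glycolytic enzyme gene, was 18.7-fold higher in ORF than in NC libraries. Of 53 immediate early and stress response genes, 15 were called higher in ORF libraries and none in libraries labelled MT, and their part in exon levels was not tested. KRT8, the most abundant of 10 genes listed for colon epithelium, averaged 73191 normalized reads in ORF and 55686 in NC libraries. Of those 10 genes, 8 were listed in the gene table of ORF with NC and 2 were not, so the 2 have no value there. The 10 fibroblast markers summed to 72.6 to 117 in ORF and 58.5 to 89.3 in NC libraries. For 10 blood cell markers the sums were 42.5 to 62.8 in ORF and 30.9 to 48.7 in NC libraries. For 10 genes listed for other cultured epithelial lines they were 886 to 1022 in ORF and 912 to 1030 in NC libraries. The most abundant of these was TTF1, a gene other than NKX2-1, at a mean of 429 in ORF and 388 in NC libraries. These sums are therefore not read as a sign of such lines. In these bulk RNA samples, fewer cells with a form and less of that form per cell cannot be told apart. In the splicing tables the 3 libraries of a group share a cell without names and are numbered here by their place in it. The NC levels were identical in all 49728 rows that both tables hold.

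The first question was whether ORF cells included these exons differently from NC cells. Few single exons passed the test: limma on the log2 odds of inclusion, with Benjamini-Hochberg adjustment over 9771 skipped-exon rows, called 1 frame-shifting exon among the 4986 rows (4345 exons) that passed the filter, a 157-base exon of BUD23 that fell in ORF libraries. Over all rows the same rule called 2, or 0.0205%. Rows needed at least 20 reads on average in both groups and a mean level of 0.05 to 0.95, and a call needed an adjusted p under 0.05 and a level difference of at least 0.05. At an unadjusted p under 0.05 there were 436 frame-shifting rows, 183 higher and 253 lower in ORF libraries, or 8.74% against 8.65% of all rows. The groups did not overlap in 811 frame-shifting rows, or 16.3% against 15.9% of all rows. On simulated data this test recovered 18 of 100 changes of 2 and 78 of 100 changes of 4 in log2 odds among 9771 rows.

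BUD23 encodes the methyltransferase that modifies a guanine of 18S ribosomal RNA. Its 157-base exon (chr7:73683767-73683923, plus strand) lies in the 5' UTR, where a change of length does not shift the protein's frame. The level was 0.490, 0.243 and 0.333 in ORF libraries, 1, 0.464 and 0.274 in libraries labelled MT, and 1, 1 and 1 in NC libraries. Skipping reads numbered 42, 47 and 76 in ORF libraries, 0, 36 and 75 in libraries labelled MT, and 0, 0 and 0 in NC libraries. All 3 ORF libraries and 2 of the libraries labelled MT thus held the skipping form, and no NC library did. Inclusion reads overlapped between the groups, at 83, 31 and 78 in ORF, 68, 64 and 58 in MT, and 45, 63 and 64 in NC libraries. The log2 odds differed by -6.70 (SE 0.51, limma adjusted p = 0.0343) between ORF and NC libraries, a size that depends on the pseudocount of 0.5 because NC held no skipping reads. Against NC the libraries labelled MT gave -4.32 (SE 1.91, limma adjusted p = 0.924). The ORF call was lost with a pseudocount of 1, a minimum of 10 reads or any 1 library left out, with adjusted p past 0.05 in each.

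**Figure D2:**
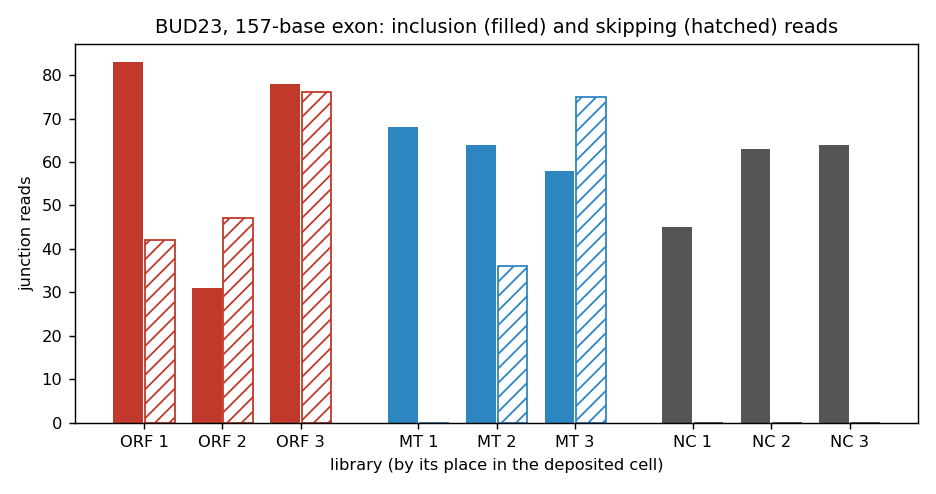
Junction reads (y axis) of the 157-base exon of BUD23 in each of the 9 libraries (x axis; ORF red, MT blue, NC grey), filled bars for inclusion and hatched bars for skipping. Skipping reads reach 42 to 76 in the ORF libraries, 0, 36 and 75 in the libraries labelled MT and stay at 0 in the NC libraries.

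The exons with the next smallest p did not pass. A 202-base exon of CTBP2, a transcriptional corepressor gene, was at 1, 1 and 1 in ORF libraries, with no skipping read, at 1, 1 and 0.744 in libraries labelled MT, and at 0.804, 0.762 and 0.763 in NC libraries (limma adjusted p = 0.210 for ORF against NC). An 86-base exon of the transcript AD000671.1 was at 0.750, 0.857 and 0.706 in ORF libraries and at 1, 1 and 1 in NC libraries (limma adjusted p = 0.299). A 95-base exon of PABPC1L, a poly(A)-binding protein gene, was at 1, 1 and 1 in ORF libraries and at 0.776, 0.588 and 0.776 in NC libraries, on 3 to 6 skipping reads per NC library (limma adjusted p = 0.362). In each of these 3 exons 1 group had no read of 1 form, so the level could not vary there.

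A second test was chosen after the data were seen: edgeR's quasi-likelihood test on the 6020 rows with at least 1 read of each form in all 6 libraries, which leaves out exons such as that of BUD23. It called 50 rows in all, or 0.831%. Among the frame-shifting exons it called 28 of 2726, 8 higher and 20 lower in ORF than in NC libraries, on 2997 rows of which 0.934% were called. Of all rows, 0.266% were called higher and 0.565% lower. The frame-preserving rows gave 15 calls of 2572, or 0.583%. With 1 library left out at a time the test called 17 to 25 frame-shifting exons, counts that have no share over all rows beside them. Of the 28 exons, 12 were still called without NC 1 or without NC 3, 16 without ORF 1 or without ORF 3, 17 without NC 2 and 20 without ORF 2, and 9 were called in every one of those 6 fits: EIF4G2, HNRNPH3, FDXR, ADRM1, TOMM34 and the 140-base exon of EIF4A2, which were lower in ORF libraries, and the 107-base exon of EIF4A2, POMZP3 and SAT1, which were higher. With limma on the same rows EIF4G2 passed alone, also among all of them (0.0166%). Over all 9771 rows edgeR called 3 frame-shifting exons and 6 rows in all (0.0614%). In simulated data, 100 changes of 2 and 100 changes of 4 in log2 odds were set. Of these, 94 and 75 kept both forms in every library and were tested. edgeR recovered 78 and 74 of them, with 4 false calls over the 5801 rows tested.

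EIF4G2 encodes a relative of the translation scaffold eIF4G that lacks the cap-binding eIF4E site. Its 65-base exon (chr11:10807255-10807319, minus strand) holds the annotated start codon, so a transcript without it lacks that start. The level was 0.846, 0.853 and 0.830 in ORF libraries, 0.996, 0.996 and 0.99 in libraries labelled MT, and 0.993, 0.989 and 0.994 in NC libraries. Skipping reads were 50, 60 and 74 in ORF libraries, 1, 1 and 3 in libraries labelled MT, and 2, 4 and 2 in NC libraries. The ORF libraries lay below all 6 others, at 0.843 ± 0.012 against 0.992 ± 0.003 in NC libraries (SD, n = 3 each). The edgeR adjusted p was 9.24e-07, and that of limma was 0.0373 over rows with both forms and 0.371 over all rows that passed the filter.

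EIF4A2 encodes an RNA helicase of the translation initiation machinery, and 2 of its frame-shifting exons passed the edgeR test. The 107-base exon (chr3:186788310-186788416, plus strand) is annotated only in decay-target transcripts and carries the stop codon shown above. Its level was 0.416, 0.325 and 0.502 in ORF libraries, 0.124, 0.129 and 0.153 in libraries labelled MT, and 0.151, 0.162 and 0.172 in NC libraries. Inclusion reads were 290, 332 and 444 in ORF libraries and 173, 202 and 199 in NC libraries, while skipping reads were 237, 402 and 256 in ORF and 566, 610 and 558 in NC libraries. The ORF libraries lay above all others (edgeR adjusted p = 0.000174, limma adjusted p = 0.371). A 111-base, frame-preserving form that overlaps this exon gave 0.453 in ORF and 0.192 in NC libraries and was also called, and the 2 rows share junction reads. The 140-base exon (chr3:186784962-186785101, plus strand), whose skipping gives a stop 27 codons on, was at 0.610, 0.647 and 0.537 in ORF libraries, 0.774, 0.833 and 0.744 in libraries labelled MT, and 0.767, 0.765 and 0.764 in NC libraries (edgeR adjusted p = 0.000597). In the transcript without it the computed coding frame holds 96 codons, against 407 with it. EIF4A2 as a gene differed by -0.10 on the log2 scale between ORF and NC libraries (SE 0.18, limma adjusted p = 0.819).

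HNRNPH3 encodes a member of the hnRNP H/F family, which binds G-rich RNA and regulates splicing. Its 139-base exon (chr10:68337858-68337996, plus strand), exon 3 of 10, was at 0.759, 0.792 and 0.752 in ORF libraries, 0.944, 0.968 and 0.935 in libraries labelled MT, and 0.935, 0.963 and 0.956 in NC libraries. Skipping reads were 111, 111 and 118 in ORF libraries against 33, 22 and 24 in NC libraries. The ORF libraries were the lowest 3 of the 9 (edgeR adjusted p = 2.38e-06, limma adjusted p = 0.371), and skipping cuts the computed frame to 71 codons from 346.

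FDXR encodes ferredoxin reductase, a mitochondrial electron-transfer enzyme and a known p53 target. Its 85-base exon (chr17:74864480-74864564, minus strand) was at 0.876, 0.874 and 0.884 in ORF libraries, 0.981, 0.998 and 0.979 in libraries labelled MT, and 0.979, 0.976 and 0.978 in NC libraries. The spread within each group was far smaller than the gap, with SDs of 0.005 in ORF and 0.002 in NC libraries (edgeR adjusted p = 1.55e-05, limma adjusted p = 0.398). TOMM34 encodes a cytosolic cochaperone of mitochondrial protein import. Its 148-base exon (chr20:44948730-44948877, minus strand) was at 0.898, 0.892 and 0.895 in ORF libraries, 0.963, 0.974 and 0.967 in libraries labelled MT, and 0.965, 0.98 and 0.956 in NC libraries (edgeR adjusted p = 0.00393). ADRM1 encodes a ubiquitin receptor of the proteasome, and its 103-base exon is the last but 1 of 10, so that the stop on skipping lies in the last exon. It was at 0.907, 0.921 and 0.893 in ORF libraries, 0.963, 0.967 and 0.98 in libraries labelled MT, and 0.968, 0.968 and 0.982 in NC libraries (edgeR adjusted p = 8.96e-05). The ORF libraries were the lowest in all 3 exons, and their computed frames without the exon hold 247 codons of 491, 190 of 309 and 369 of 407, in the order named.

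SAT1 encodes spermidine/spermine acetyltransferase, an enzyme of polyamine breakdown, and its 110-base exon (chrX:23784294-23784403, plus strand) is a poison exon with a stop 4 codons in. The level was 0.153, 0.175 and 0.237 in ORF libraries, 0.064, 0.087 and 0.079 in libraries labelled MT, and 0.075, 0.072 and 0.093 in NC libraries. Inclusion reads were 148, 175 and 165 in ORF libraries against 89, 85 and 121 in NC libraries, and skipping reads were 472, 473 and 305 in ORF against 634, 633 and 680 in NC libraries (edgeR adjusted p = 0.00347). The gene's own level differed by -0.68 on the log2 scale (SE 0.17), which did not pass (limma adjusted p = 0.118). A 119-base exon of POMZP3, a fusion gene built from copies of POM121 and ZP3, was at 0.277, 0.177 and 0.249 in ORF libraries, 0.037, 0.039 and 0.077 in libraries labelled MT, and 0.034, 0.016 and 0.060 in NC libraries (edgeR adjusted p = 0.00210). Its reads could come from the parent copies, so its value is uncertain. In both genes every ORF library lay above all the others.

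**Figure D3:**
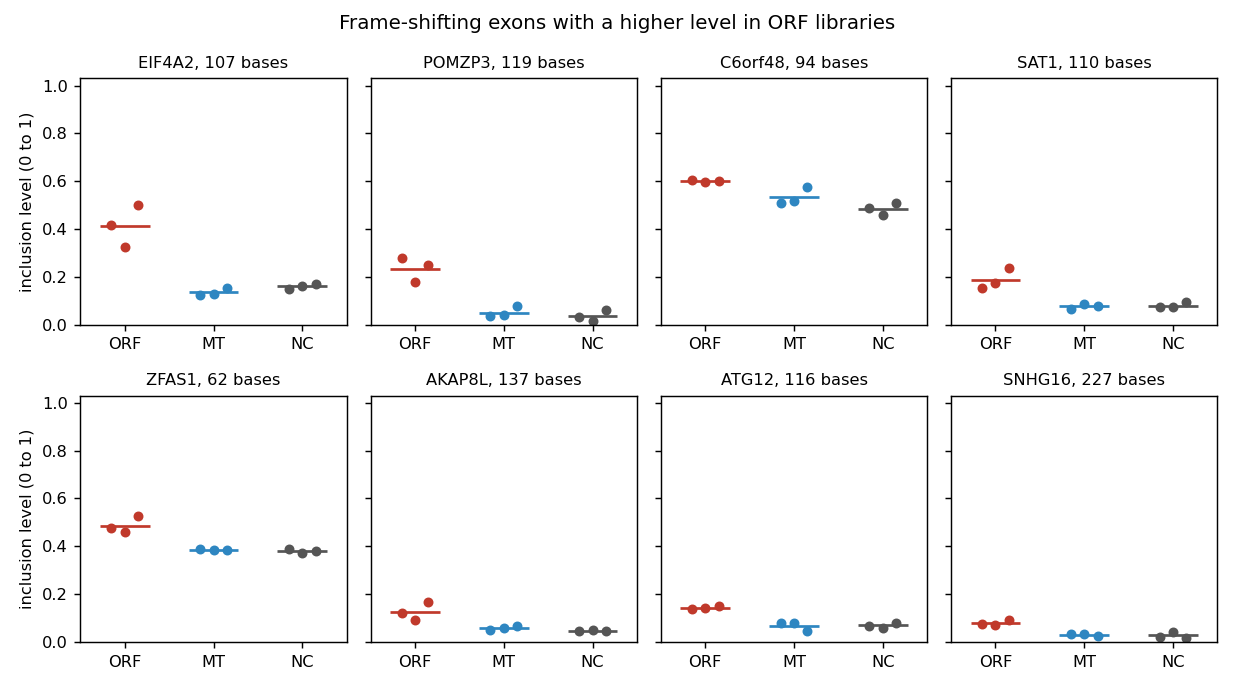
Inclusion level (y axis, 0 to 1) of the 8 frame-shifting exons called higher in ORF than in NC libraries by edgeR, 1 panel per exon, with a point per library and a bar at the mean of each group of 3. ORF points lie above NC points in all panels, from 0.325, 0.416 and 0.502 against at most 0.172 in EIF4A2 down to 0.071 to 0.090 against at most 0.042 in SNHG16.

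The other 5 exons that were higher lay in ZFAS1, C6orf48 and SNHG16, which host small nucleolar RNAs, in ATG12, a ubiquitin-like protein of autophagy, and in AKAP8L, a nuclear anchoring protein. ZFAS1's 62-base exon was at 0.475, 0.458 and 0.525 in ORF libraries, 0.387, 0.385 and 0.385 in libraries labelled MT, and 0.388, 0.373 and 0.379 in NC libraries (edgeR adjusted p = 0.0102). C6orf48's 94-base exon averaged 0.602 ± 0.005 in ORF libraries, 0.534 ± 0.037 in libraries labelled MT and 0.486 ± 0.026 in NC libraries (SD, n = 3 each). Forms of 219 and 223 bases that overlap it were also higher in ORF libraries but were not called (edgeR adjusted p from 0.160 to 0.317). The exons of SNHG16, ATG12 and AKAP8L stayed rare, at means of 0.078, 0.142 and 0.125 in ORF libraries against 0.027, 0.070 and 0.048 in NC libraries. None of these 5 was called in every fit with 1 library left out, and ATG12 was called in 0 of 6.

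**Figure D4:**
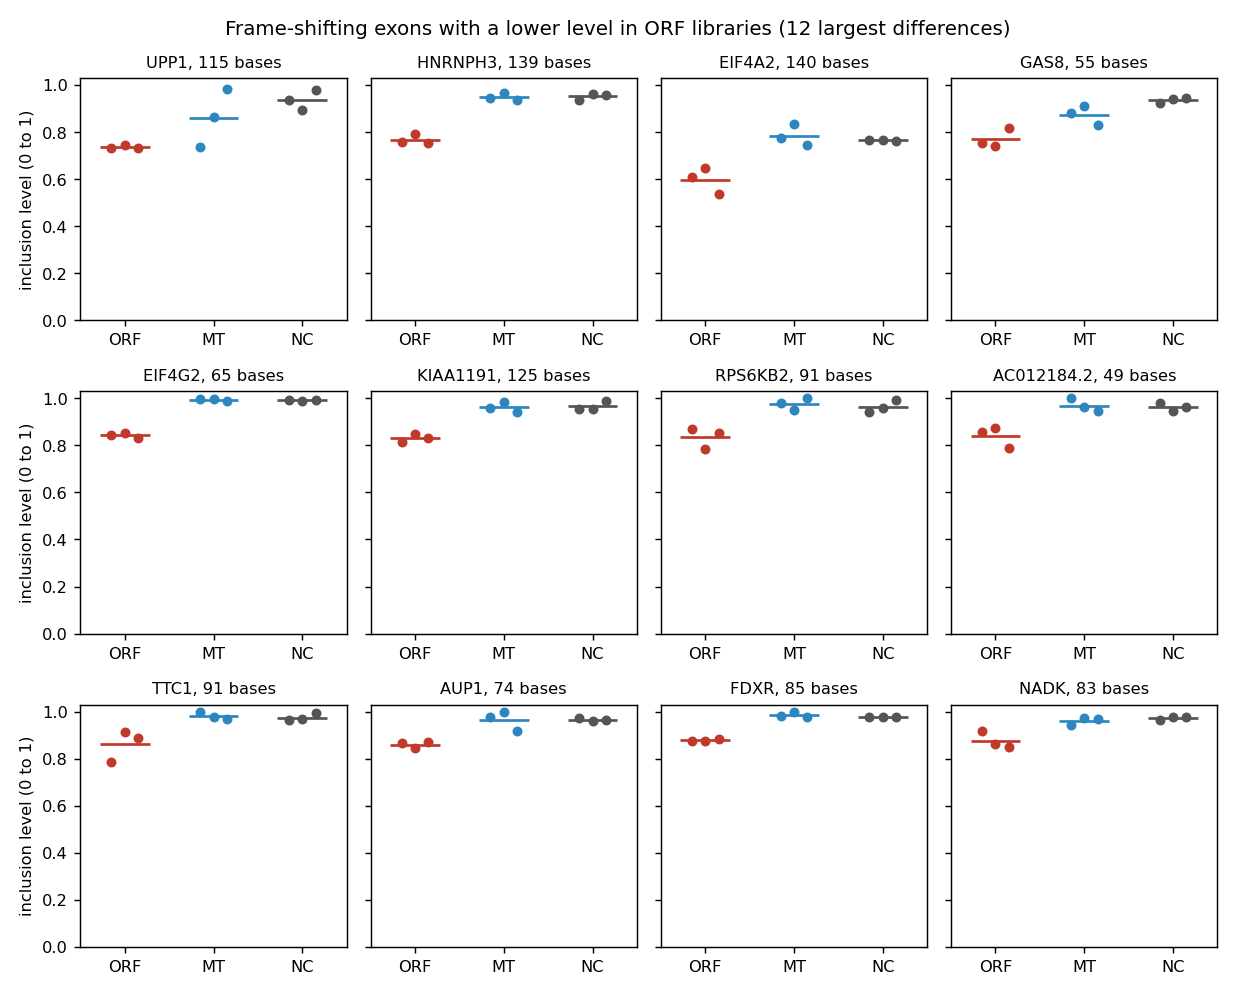
Inclusion level (y axis, 0 to 1) of the 12 frame-shifting exons with the largest differences among the 20 called lower in ORF than in NC libraries by edgeR, 1 panel per exon, with a point per library and a bar at the mean of each group of 3. The ORF means run from 0.598 in EIF4A2 to 0.878 in FDXR, and the ORF points lie below the NC points in all panels.

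The remaining 14 exons that were lower had differences between -0.199 in UPP1 and -0.057 in UBXN6. UPP1, uridine phosphorylase, was at 0.732, 0.746 and 0.731 in ORF libraries and at 0.935, 0.892 and 0.978 in NC libraries, and the libraries labelled MT were spread over 0.738, 0.864 and 0.983. SNRPA1 encodes the U2 snRNP protein A', a part of the spliceosome. Its 80-base exon was at 0.859, 0.876 and 0.841 in ORF libraries, 0.956, 0.970 and 0.937 in libraries labelled MT, and 0.967, 0.940 and 0.931 in NC libraries (edgeR adjusted p = 0.00868), and it lost the call only without the first NC library. RPS6KB2, the S6 kinase S6K2, was at 0.869, 0.783 and 0.853 in ORF libraries and at 0.942, 0.960 and 0.992 in NC libraries (edgeR adjusted p = 0.0166). TRIP6, a LIM domain adaptor protein, was at 0.908, 0.935 and 0.898 in ORF libraries and at 0.992, 0.973 and 0.984 in NC libraries (edgeR adjusted p = 0.000430). A 78-base, frame-preserving form that overlaps it was also called, at 0.816 in ORF and 0.960 in NC libraries (edgeR adjusted p = 0.00311). The others were GAS8 of the ciliary dynein regulatory complex, FKBP9, AUP1 and UBXN6, which act in protein folding and degradation, ITPA and NADK of nucleotide metabolism, STXBP2 of vesicle fusion, TTC1, KIAA1191 and the transcript AC012184.2. Forms of 108 and 126 bases that overlap the ITPA exon were also lower in ORF libraries but were not called (edgeR adjusted p = 0.139 and 0.777). Of the 14, none was called in every fit with 1 library left out, and AUP1 was called in 0 of 6.

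The called exons had features that the length rule does not use. Of the 20 that were lower, 15 (75.0%) give an early stop when skipped, against 37.6% of the 2726 exons tested, and none gives one when included. Of the 8 that were higher, 5 (62.5%) give an early stop when included, against 10.4% of those tested, and none gives one when skipped. The room for a difference of 0.05 depends on the starting level. The median NC level was 0.967 for the exons that were lower, 0.0748 for those that were higher and 0.753 for all tested. The filter adds to this, as it needed a mean level over ORF and NC libraries of 0.05 to 0.95. An exon above 0.95 in NC was tested only if lower in ORF libraries, and one under 0.05 only if higher. Exons at such NC levels without a change were not tested. The background of the early stop shares therefore does not match the called exons in NC level. The called exons were deep, with a median of 545 reads per library for those that were lower and 581 for those that were higher, against 114 for all tested, and the part of depth in the calls was not tested. Flanking introns were short, at medians of 624 bases upstream and 415.5 bases downstream for the exons that were lower and 525.5 and 746.0 bases for those that were higher, against 2141.5 and 2031.0 bases for all tested. GC content was about the same, at 51.6%, 52.3% and 51.7% in that order. The last base of the exon, which is part of the 5' splice site consensus, was G in 16 of the 20 (80.0%), 7 of the 8 (87.5%) and 76.2% of all tested. These shares describe a few exons chosen by the call and carry no test.

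Over all tested exons, not only those called, the counts by direction in ORF libraries differed with the frame effect, a difference between classes that was not tested. Among 1895 exons whose skipping gives an early stop, 133 were lower and 38 higher in ORF than in NC libraries at an unadjusted limma p under 0.05, and the median level difference was -0.013. Among 357 exons whose inclusion gives an early stop, 17 were lower and 40 higher, with a median difference of 0.0073. Both classes leaned toward the form with the early stop. That lean kept its direction in every setting run, but the counts moved: by rows, the skipping class gave 146 lower and 48 higher, 93 and 48 without ORF 3, 67 and 25 with rows whose separators were kept, and 1180 and 192 with no window on the level. The inclusion class gave 40 rows higher and 21 lower, 26 and 19 without ORF 1 or NC 3, 26 and 15 without ORF 3 or NC 2, 32 and 27 with a mean of 10 reads, 17 and 14 with separators kept, 26 and 11 with edgeR and 120 and 54 with no window. For the 3473 frame-preserving exons the counts were 152 lower and 114 higher with a median of -0.006, and for all 8640 skipped exons 444 lower and 301 higher with a median of -0.0063. The 635 exons with no early stop by the rule gave 29 lower and 19 higher, and the 1458 not computed gave 49 lower and 63 higher. With edgeR over rows with both forms, 432 exons with no early stop gave 45 lower and 15 higher (10.4% and 3.47%). The skipping class gave 109 lower and 33 higher of 1024 in that test (10.6% and 3.22%). In that test the lean toward lower levels was thus not particular to exons whose skipping gives an early stop.

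Library means show how small these shifts were. Over the 1361 exons of the skipping class with a mean level of 0.05 to 0.95 and enough reads in every group, the mean level was 0.830, 0.832 and 0.827 in ORF libraries, 0.844, 0.844 and 0.843 in libraries labelled MT, and 0.841, 0.841 and 0.844 in NC libraries. The ORF libraries were the lowest 3 of the 9. Over the 321 exons of the inclusion class it was 0.295, 0.302 and 0.291 in ORF libraries, 0.295, 0.278 and 0.278 in libraries labelled MT, and 0.294, 0.279 and 0.293 in NC libraries, and the groups overlapped. For the 2942 frame-preserving exons it was 0.650, 0.654 and 0.650 in ORF libraries and 0.659, 0.656 and 0.657 in NC libraries, with the ORF libraries again lowest.

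**Figure D5:**
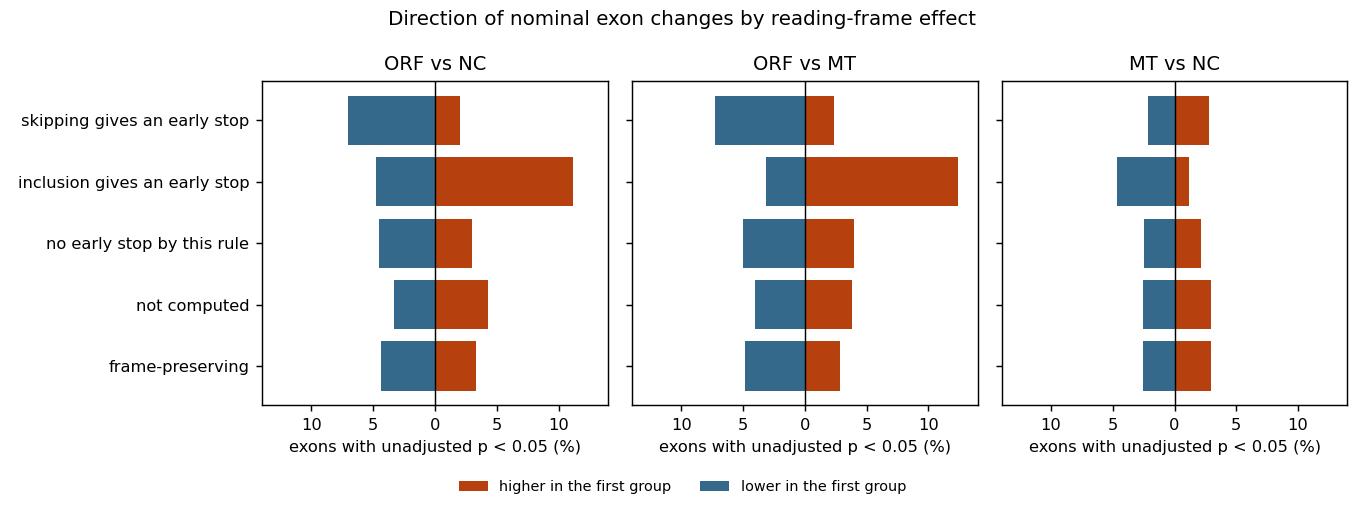
Share of tested exons (x axis, %) with an unadjusted limma p under 0.05, drawn to the right where the first group is higher and to the left where it is lower, by reading-frame effect (rows) and comparison (panels). ORF against NC and ORF against MT, which share the ORF libraries, lean left in the skipping class (7.02% and 7.29% lower) and right in the inclusion class (11.2% and 12.4% higher), and MT against NC leans the other way in the inclusion class (4.62% lower, 1.16% higher).

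The libraries labelled MT were set against NC in the same way. By the label they hold the frame without its start codon, but LINC00266-1 was at or near 0 reads in them. Against NC, limma called 0 of 4779 frame-shifting rows (4178 exons), where 1 of all 9513 rows (0.0105%) was called. At an unadjusted p under 0.05 there were 248, 126 higher and 122 lower in libraries labelled MT, or 5.19% against 5.47% of all rows. The groups did not overlap in 484 rows, or 10.1% against 10.4%. edgeR over all rows also called 0, and edgeR over rows with both forms called 0 of 2988, with 150 at an unadjusted p under 0.05 (5.02% against 5.26% of all), and 1 of all 6042 rows (0.0166%). In the simulation limma recovered 30 of 100 changes of 2 and 70 of 100 changes of 4 in log2 odds for MT against NC. By frame effect, 37 exons of the skipping class were lower and 49 higher of 1753, and 16 of the inclusion class were lower and 4 higher of 346. By rows the skipping class gave 45 lower and 57 higher, but 65 and 41 without NC 1 and 47 and 47 without NC 3.

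The 5 exons with the smallest p in MT against NC did not pass. RWDD4, a gene of an RWD domain protein, had a 110-base exon at 0.365, 0.561 and 0.502 in libraries labelled MT and at 1, 1 and 1 in NC libraries (limma adjusted p = 0.0524), on 3 to 12 skipping reads per library labelled MT. ZFAND6, a zinc finger protein gene, had a 163-base 5' UTR exon at 1, 1 and 1 in libraries labelled MT and at 0.598, 0.603 and 0.611 in NC libraries (limma adjusted p = 0.0524). LCORL, a transcription factor gene, had a 94-base exon at 0.505, 0.479 and 0.532 in libraries labelled MT and at 0.811, 0.857 and 0.860 in NC libraries (limma adjusted p = 0.205). NDE1, a dynein regulator gene, had a 152-base exon at 0.830, 0.813 and 0.768 in libraries labelled MT and at 1, 1 and 1 in NC libraries (limma adjusted p = 0.209). PABPC1L had a 116-base exon at 1, 1 and 1 in libraries labelled MT and at 0.750, 0.640 and 0.818 in NC libraries (limma adjusted p = 0.209). The groups did not overlap in any of the 5, and in 4 of them 1 group had no read of 1 form.

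ORF was also set against MT directly, over rows in both tables. The ORF libraries are those of the first comparison, so its values are not independent of it. limma called 0 of 4633 frame-shifting rows (4092 exons), where 1 of all 9166 rows (0.0109%) was called, and 440 rows (9.5%, against 9.04% of all rows) had an unadjusted p under 0.05, 182 higher and 258 lower in ORF libraries. The groups did not overlap in 738 rows, or 15.9%, which is also the share among all rows. The smallest p belonged to a 139-base exon of FAM149A at 0.728, 0.746 and 0.633 in ORF libraries and at 1, 1 and 1 in libraries labelled MT (limma adjusted p = 0.139), on 3 to 6 skipping reads per ORF library. Exons of PLEKHM1P1 (limma adjusted p = 0.238), NIPA2, NGLY1 and DGKA followed and did not pass either. Set beside the comparison with NC, edgeR over rows with both forms called 21 of 2587 exons, 6 higher and 15 lower in ORF than in libraries labelled MT, or 0.743% of 2825 rows against 0.755% of all 5698, 0.281% of all being higher and 0.474% lower. The frame-preserving rows gave 16 calls of 2430, or 0.658%. limma on those rows called EIF4G2 alone (0.0176%), and edgeR over all 9166 rows called 2 frame-shifting exons and 3 rows in all (0.0327%). In simulated data for this comparison, 100 changes of 2 and 100 changes of 4 in log2 odds were set. Of these, 90 and 64 kept both forms in every library and were tested. edgeR recovered 71 and 64 of them, with 9 false calls over the 5487 rows tested.

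EIF4G2 differed by -0.151 in level from libraries labelled MT and by -0.149 from NC libraries. HNRNPH3 differed by -0.181 from MT and by -0.184 from NC libraries, and the 107-base exon of EIF4A2 by 0.279 from MT and by 0.253 from NC libraries. FDXR gave -0.108 and -0.100, SAT1 0.112 and 0.108, and POMZP3 0.183 and 0.198, the MT value first. For other exons the differences were less alike: BUD23 gave -0.224 and -0.645, UPP1 -0.125 and -0.199, and C6orf48 0.067 and 0.116, again the MT value first. In ORF against MT, edgeR called 10 exons in every fit with 1 library left out. They were EIF4G2, HNRNPH3, FDXR, ADRM1, TOMM34, SNRPA1, SAT1, POMZP3 and both exons of EIF4A2. OR51B5, DENND1A, PIGT and YDJC passed against MT and were tested but not called against NC; OR51B5 was higher in ORF libraries and the others were lower. Exons of AIG1, which was higher, and of PLXNB2 and NADK (158 bases), which were lower, passed against MT but were not tested against NC, because their mean level over ORF and NC libraries was above 0.95. PLXNB2 averaged 0.923 in ORF libraries, 0.974 in libraries labelled MT and 0.988 in NC libraries, and the 158-base exon of NADK 0.916 in ORF libraries, 0.977 in libraries labelled MT and 0.985 in NC libraries. The 83-base exon of NADK, called against NC, had the same skipping reads as the 158-base exon in every library. Its row and that of the 158-base exon are therefore not independent. OR51B5, an olfactory receptor gene with noncoding transcripts here, was at 0.813, 0.849 and 0.854 in ORF libraries, 0.719, 0.677 and 0.728 in libraries labelled MT, and 0.773, 0.756 and 0.766 in NC libraries, so that the NC libraries lay between. AIG1's 116-base exon averaged 0.977 in ORF libraries, 0.866 in libraries labelled MT and 0.957 in NC libraries. The difference between the 2 contrasts was not tested.

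Gene groups with a role in splicing, decay and growth were counted next. In none of 13 lists did limma call a frame-shifting exon in any of the 3 comparisons. edgeR over rows with both forms, ORF against NC, called 1 of 32 exons in hnRNPs and other splicing regulators (HNRNPH3), 1 of 24 in the core spliceosome (SNRPA1), 1 of 16 in apoptosis and p53 genes (FDXR) and 4 of 23 in mRNA translation factors (EIF4A2 with both exons, EIF4G2, RPS6KB2), beside 0.934% of all frame-shifting rows and 0.831% of all rows. The lists were chosen with earlier results known, so these counts carry no test. It called 0 of 4 in SR proteins, a family rich in poison exons, 0 of 35 in DNA repair, 0 of 44 in chromatin modifiers and 0 of 49 in chromosome segregation and cell cycle genes, and none in the other lists. By limma the median level difference of the 25 tested exons of translation factors was -0.011, and that of the 37 tested exons of hnRNPs and other regulators was -0.016, beside -0.006 for all frame-shifting exons and -0.0063 for all skipped exons. Against NC, libraries labelled MT gave medians of 0.0075 and -0.00067 for the same lists, beside -0.00033 for all.

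Gene levels, which the exon rule does not use, changed in few of the host genes. With limma on log2(normalized reads + 1), 10 of 2946 hosts of a tested frame-shifting exon passed in ORF against NC, or 0.339% against 0.418% (103) of all 24662 genes tested. Among the 9 that rose were SNHG5, SNHG12, SNHG15 and C6orf48, which host small nucleolar RNAs, RIOK3, a kinase gene, FOSL1, an AP-1 subunit, OASL, an interferon-induced gene, and ARRDC3, an arrestin-like gene. LEMD1 fell. SNHG5 was at 2459, 2375 and 2616 normalized reads in ORF libraries and at 1355, 1499 and 1288 in NC libraries, a log2 change of 0.85 (SE 0.12, limma adjusted p = 0.0125). LEMD1 was at 71.4, 73.6 and 44.7 normalized reads in ORF libraries and at 146, 180 and 171 in NC libraries, a log2 change of -1.40 (SE 0.23, limma adjusted p = 0.0236). The count rests on single libraries: it was 154 without the first ORF library, 260 without the second, 1 without the third and 0 without any 1 NC library. Among the hosts of the exons called by edgeR, C6orf48 passed, with a log2 change of 0.85 (limma adjusted p = 0.0364). In MT against NC, limma called 0 of 2854 hosts, with 155 at an unadjusted p under 0.05, edgeR also called 0 hosts, and limma called 0 of 25310 genes, or 0.0%.

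The decay machinery itself was measured in the same tables. Of 27 genes of nonsense-mediated decay and the exon junction complex, none was called in ORF against NC, with a smallest limma adjusted p of 0.169 and a median log2 change of 0.14, beside -0.04 for all genes. EIF4A3, the helicase of the exon junction complex and the most abundant of them, averaged 6903 normalized reads in ORF and 5757 in NC libraries. In MT against NC none was called either, with a median of -0.08 beside 0.01 for all genes.

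The authors' deposited table counts far more events than the fits across libraries, but over more rows and by another rule. For ORF against NC it holds 38401 frame-shifting rows, of which 4986 passed the filter of the limma fit. Its rows were counted here by FDR alone, without a minimum of reads, a level window or a minimum difference. At its FDR under 0.05 it held 2099 frame-shifting rows in ORF against NC, 966 higher and 1124 lower in ORF libraries, or 5.47% of rows beside 5.46% of all skipped-exon rows, and the groups did not overlap in 771 of them (36.7%, beside 37.1% of all rows at that FDR). In MT against NC, the authors' deposited table held 1590, 771 higher and 807 lower in libraries labelled MT, or 4.54% of rows beside 4.64% of all, and the groups did not overlap in 521 of them (32.8%, beside 31.9% of all rows at that FDR). In the authors' deposited table the FDR of the 107-base exon of EIF4A2 was 2.24e-34 for ORF and 1.0 for MT, each against NC. For BUD23 the authors' deposited table gave 1.01e-31 for ORF and 1.53e-15 for MT, although 1 of the 3 libraries labelled MT had no skipping read.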

How the data were processed

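Total RNA of HCT-116 cells was made into Illumina libraries, per the labels; the submitters' processing notes name builds GRCh38 and hg38, and aligner, splicing tool and strandedness are not given there. The deposited gene tables hold a normalized signal per library, a read count over that library's size factor (100% of values whole within 0.1), and the authors' log2 fold changes were not used. The authors' p-value and FDR columns name no test. Junction reads, inclusion levels and effective lengths make up the deposited splicing tables. In many cells the separators between libraries were lost. Reads were recovered from splits that match the deposited levels within 0.0011, taking the most even split if the next was at least 2 times less even (9843 of 38401 frame-shifting rows in the ORF table and 8414 of 34990 in the MT table); 5 ORF rows were left out.

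Exon odds (pseudocount 0.5, all skipped-exon rows of a comparison) and log2(value + 1) of genes, where at least 3 libraries reached 1, were fitted with limma 3.58.1, eBayes with trend, under R 4.3.3. edgeR 4.0.16 was an alternative. Both were tested on simulated data with known changes. Frame effects were computed from GENCODE 29 transcripts, and sequences come from the same release (GRCh38). The members, gene lists and rules were chosen with earlier results of these data known. Named by rule were exons called by limma, or, with fewer than 3, the 5 with the smallest p; exons called by edgeR were named after their values were seen. Same-numbered libraries did not deviate together, so no block was used.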

Additional observations from a re-analysis of the deposited data

How the results depend on the processing

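Counts of called frame-shifting exons were small and moved with the settings. In ORF against NC the count of 1 became 0 with a mean of 10 reads, with a pseudocount of 1 and with a replicate block, also over rows with both forms; it was 3 with edgeR, 4 with no window on the level, 21 with limma on the deposited levels and 28 with edgeR over rows with both forms. Leaving out 1 library gave 0 to 2; with that edgeR test it gave 17 without ORF 1 or NC 3, 18 without ORF 3 or NC 1 and 25 without ORF 2 or NC 2. In MT against NC the count of 0 became 13 with limma on the deposited levels and stayed 0 in every other setting run. In ORF against MT the count of 0 became 1 with limma on the deposited levels or over rows with both forms, 2 with edgeR and 21 with edgeR over rows with both forms. Leaving out 1 library gave 0 to 2. With that edgeR test, leaving 1 out gave 16, 29 and 11 without ORF 1, ORF 2 and ORF 3, and 24, 19 and 18 without MT 1, MT 2 and MT 3. The counts with no window, with limma on the deposited levels and with 1 library left out have no share over all rows beside them. They do not show whether frame-shifting exons were called more often than other skipped exons. Same-numbered libraries correlated between -0.020 and 0.027 over exons and between -0.082 and 0.104 over genes, so the numbers do not pair them. The count of called host genes, 10 in ORF against NC, was 26 with a replicate block, 10 to 14 with another pseudocount, filter or edgeR normalization, and 0 to 260 with 1 library left out; in MT against NC the count of 0 became 5 with a replicate block. No exon named changed direction under the settings run. The skipping class in MT against NC did, by rows at an unadjusted limma p under 0.05. Its 57 higher and 45 lower became 41 and 65 without NC 1. The rows with both forms, their edgeR test and their block were added after the data were seen. An exon with under 20 reads in a group was not tested. Exons with a mean level under 0.05 or above 0.95 were tested only in the setting with no window.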
